A study of Homo sapiens with 9 samples.

Results

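Cadherins and their catenin partners were followed in VCaP cells, an established human prostate cancer cell line of epithelial type, after transfection with the siRNAs si025 or si033. Both siRNAs were designed against exon 1 of the lncRNA *IGF1R-AS1*, and the control libraries are labelled WT, without a name for the siRNA they received. Both siRNAs were given by reverse transfection of 100 pmol, and cells were harvested 72 h later. Each group held 3 libraries, all from the same line, and the labels do not say whether these came from separate cultures, so the *p* values measure the spread between these libraries only. The 9 genes, out of 19918 in the count files, were *CDH1*, *CDH2*, *CDH3*, *CDH12*, *CDH17*, *CTNNA1*, *CTNNB1*, *CTNND1* and *JUP*, taken by name as the classical cadherins and catenins. *CDH17* was chosen by its measured rise in expression with both siRNAs in these same libraries, so its values are described without a test. The targeted lncRNA was not analysed here, and the degree of knockdown was therefore not measured.

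Classical cadherins are calcium-dependent adhesion receptors that bind cadherins on the neighbouring cell at adherens junctions. Their cytoplasmic tails bind β-catenin (*CTNNB1*) or γ-catenin (*JUP*, plakoglobin) and, closer to the membrane, p120-catenin (*CTNND1*), and α-catenin (*CTNNA1*) links this complex to actin. β-Catenin not held at junctions is degraded or, under Wnt signaling, acts in the nucleus with TCF factors. *CDH1* encodes E-cadherin of luminal epithelium, *CDH3* encodes P-cadherin, which in the prostate marks basal cells, and *CDH2* encodes N-cadherin of neural and mesenchymal cells. *CDH12* encodes a type II cadherin best known from brain, and *CDH17* encodes the liver-intestine cadherin, whose short tail lacks the catenin-binding region.

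Library totals ranged from 11649811 to 28492259 counts. A gene is referred to as called where the adjusted *p* value was under 0.05 in edgeR's quasi-likelihood test over the 12810 genes that passed the expression filter, the source of every adjusted *p* value given unless another fit is named. CPM is the count scaled to the TMM-normalised library size, in the usual unit of RNA-seq levels, and values are mean ± SD over 3 libraries. The labels give an epithelial cell, and all 10 luminal markers listed were at 1 CPM or more in every library. Of markers of other cell types, *KRT5* (basal), *CLDN5* (endothelial) and *CD3E* (immune) had no count in any library, and the mesenchymal *VIM* had at most 3 counts. Others of the same lists were detected, with control means of 15.6 CPM for *LUM*, 3.81 for *KRT14*, 2.31 for *FN1*, 1.73 for *COL1A1*, 0.978 for *CD14* and 0.841 for *VWF*. Of 10 listed *CDH1* repressors, only *TCF3* passed the filter.

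First, the level of each gene was set per kb of exon, the scale on which different genes can be compared. In control cells, *CTNNB1* was the most abundant at 104 ± 1.95 CPM per kb, followed by *CTNND1* at 97.4 ± 1.20. *CDH1* at 71.8 ± 1.75 and *CTNNA1* at 70.9 ± 1.54 CPM per kb did not differ beyond their spread. *JUP* reached 28.5 ± 1.55 CPM per kb. These catenins and *CDH1* lay between the 82.1 and 95.8 percentiles of all tested genes in control cells. The remaining cadherins were far less abundant, at 0.880 ± 0.206 CPM per kb for *CDH3*, 0.579 ± 0.0468 for *CDH17*, 0.0692 ± 0.0185 for *CDH2* and 0.0611 ± 0.0342 for *CDH12*, the last pair overlapping. *CDH1* made up 97.8% ± 0.313 of the summed level per kb of the 5 cadherins in control cells, 94.3% ± 0.254 with si025 and 90.6% ± 0.466 with si033. Since these are bulk samples, more cells with a transcript and more transcript per cell cannot be told apart.

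**Figure D1:**
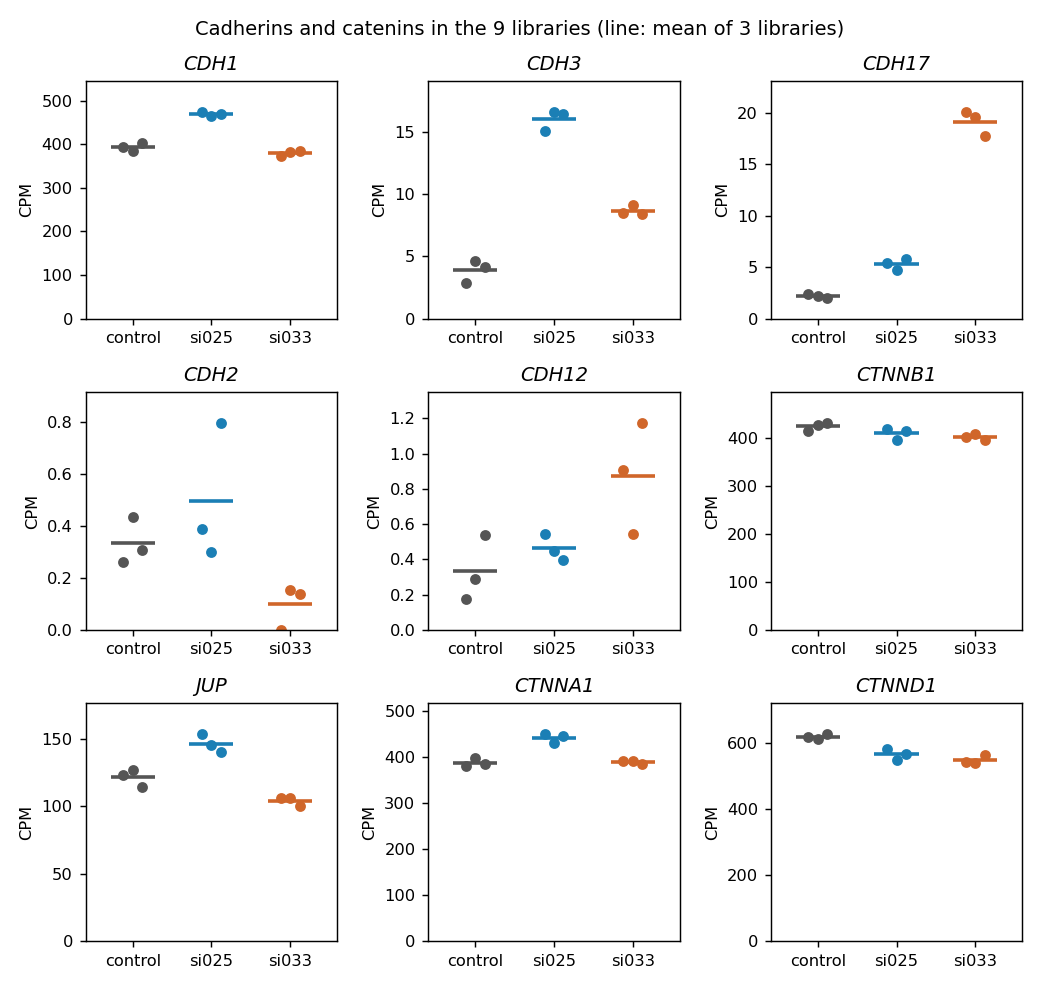
Level of each gene in CPM (vertical axes, each from 0) in the 3 control, 3 si025 and 3 si033 libraries, with 1 point per library and a line at the mean of the group. *CDH3* is highest with si025 and *CDH17* with si033, whereas the axes of *CDH2* and *CDH12* end near 1 CPM.

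Of the members other than *CDH17*, 6 passed the filter and were tested, and *CDH2* and *CDH12* did not pass. With si025, 5 of the 6 were called, 4 higher and 1 lower, against 61.7% of all 12810 tested genes (32.9% higher and 28.8% lower). With si033, 3 of the 6 were called, 1 higher and 2 lower, against 54.8% of all genes (26.9% higher and 27.8% lower). The median log2 fold change of the 6 was 0.22 with si025 and -0.06 with si033, beside 0.02 and 0.00 over all tested genes. In the direct comparison of si025 with si033, 4 of the 6 were called and all 4 were higher with si025, against 60.9% of all genes called (31.2% higher and 29.7% lower). Both comparisons with control used the same control libraries.

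*CDH17* (chromosome 8, 94127162 to 94217303, minus strand) was present at 2.36, 2.25 and 2.01 CPM in the control libraries. With si025 it was at 5.45, 4.71 and 5.79 CPM. With si033 it reached 20.1, 19.7 and 17.7 CPM. The groups did not overlap, in the order control, si025 and si033. Its log2 fold change was 1.30 with si025 (SE 0.15) and 3.13 with si033 (SE 0.13), which corresponds to 2.46-fold and 8.78-fold, and it was lower with si025 than with si033 by -1.84 on the log2 scale (SE 0.11). These values describe why the gene was chosen and carry no test. Its summed counts were 110 in control cells, 296 with si025 and 1012 with si033, and the pooled control level had an exact 95% Poisson interval of 1.77 to 2.59 CPM, for counting error only. Among all tested genes, 13 had a higher log2 fold change with si033 and 380 with si025. As no threshold chose the gene, there are no members just inside or outside a limit to compare.

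*CDH3* (P-cadherin, chromosome 16, 68644820 to 68727573, plus strand) also rose with both siRNAs, but in the other order. It was at 2.88, 4.64 and 4.17 CPM in the control libraries, 15.1, 16.6 and 16.4 CPM with si025, and 8.49, 9.13 and 8.39 CPM with si033. No group overlapped another, as was the case for 65.7% of all tested genes between si025 and control, 59.5% between si033 and control, and 62.6% between the siRNAs. Relative to control, si025 raised it by 2.01 on the log2 scale (SE 0.12, adjusted *p* = 1.69e-12) and si033 by 1.11 (SE 0.13, adjusted *p* = 2.32e-07). Called changes of at least 2-fold were found in 7.02% and 5.14% of all tested genes, respectively. The level with si025 exceeded that with si033 by 0.90 (SE 0.11, adjusted *p* = 1.22e-07), under the 2-fold mark that 7.7% of all genes passed as called in this comparison. Per kb, *CDH3* stood at 1.23% ± 0.298 of the *CDH1* level in control cells, 4.23% ± 0.250 with si025 and 2.82% ± 0.120 with si033. The highest single library, si025 replicate 2, reached 4.41% of the *CDH1* level.

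The balance of the 2 rising cadherins differed between the siRNAs. The *CDH17* level per kb was 0.952, 0.563 and 0.560 times that of *CDH3* in the control libraries. With si025 it was 0.420, 0.330 and 0.410 times, and with si033 2.76, 2.50 and 2.46 times. *CDH3* was thus the more abundant in all si025 libraries and in control replicates 2 and 3, and *CDH17* in all si033 libraries. In control replicate 1 the levels were close, resting on 33 counts of *CDH3* and 27 of *CDH17*. Over the 9 libraries, *CDH3* was the member whose pattern lay nearest to that of *CDH17*, at a distance of 3.64 in log2 CPM units. *CDH17* was chosen for its rise, and *CDH3* was the only other member called higher with both siRNAs. This nearness is therefore no separate result. The distances of 0.18 between *CDH1* and *CTNNA1* and 0.23 between *CTNNB1* and *CTNND1* belong to genes with small changes, so they are no scale for it.

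*CDH3* and *CDH1* are neighbours on the same strand, with 9716 bases between them in the annotation of the files. *CDH1* (E-cadherin, 68737290 to 68835542) was at 393, 384 and 403 CPM in the control libraries, 474, 466 and 470 CPM with si025 and 373, 383 and 383 CPM with si033. The si025 libraries lay above all others, and the si033 libraries lay just below the control libraries. Its rise with si025 was 0.26 on the log2 scale (SE 0.04, adjusted *p* = 5.32e-06). With si033 its difference of -0.05 from control was not called (SE 0.04, adjusted *p* = 0.292). It was higher with si025 than with si033 by 0.31 (SE 0.04, adjusted *p* = 4.2e-07). Promoter sequences were not at hand for *CDH1*, *CDH3*, *CDH17* and *CTNND1*.

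To look for a sequence that distinguishes the members, the 3′ untranslated regions (3′ UTRs) were searched for 7-base complements of the siRNA seeds (bases 2 to 8), since an siRNA can lower transcripts that match its seed. The study lists a negative control siRNA, but the sources used here do not say that it served in these libraries, nor which of the 2 listed *IGF1R-AS1* siRNAs is si025. Of the 9 members, *CDH3* alone holds the word CACATCA, which pairs with the seed of the strand complementary to the listed control siRNA. The 3′ UTR of *CDH3* (GENCODE version 44, hg38) is 1892 bases long and holds the word from base 1398, within chr16:68699788-68699814 on the plus strand. The control siRNA and the site are shown 5′ to 3′, with the shared 7 bases in capitals.
siRNA negative control: uagcgacuaaaCACAUCAa
CDH3 3′ UTR: ccagcgctggCACATCAtttaacctcc
The word is present in 11.7% of 12085 tested genes with a 3′ UTR, on the sense strand of the transcript. For the listed siRNA 1#, *CDH1* holds the guide word AAGACCT (present in 11.4% of genes), and *CTNND1* holds it as well as 2 copies of the passenger word TGCTTTC (21.0%). No other word of the 3 siRNAs was found in a member, and *CDH17* holds none in its 1078 bases. A match is a description of the sequence, and its part in the expression values was not tested.

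**Figure D2:**
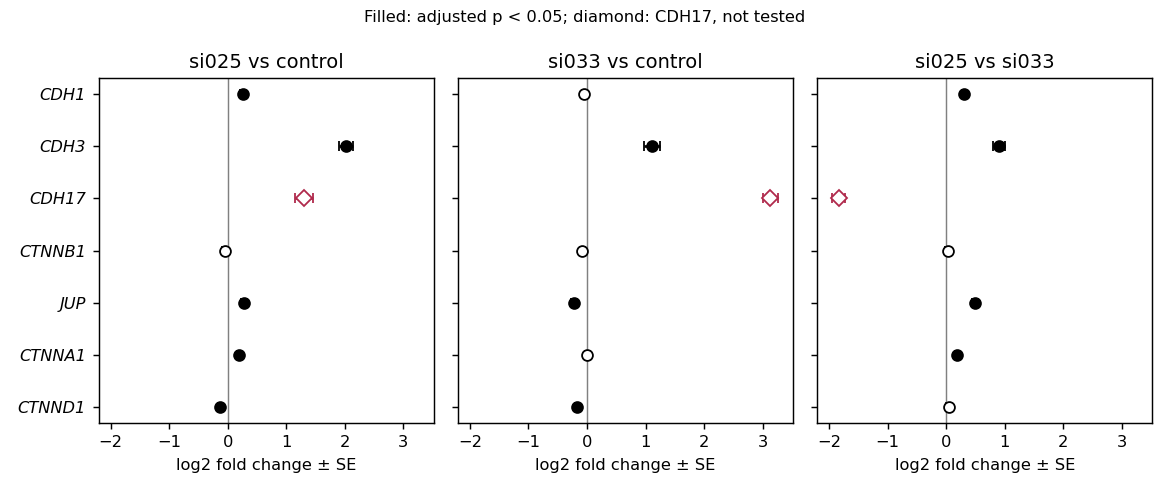
Log2 fold change (horizontal axis) with its SE for the 7 members that passed the filter, in the 3 comparisons. Filled circles were called and open circles were not, and diamonds show *CDH17*, which was not tested. *CDH3* and *CDH17* lie at 1.11 or above against control, and the catenins lie between -0.22 and 0.27 there.

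Of the 4 catenins, 3 were called with si025 and 2 with si033, beside 61.7% and 54.8% of all tested genes. *CTNNB1* (β-catenin, chromosome 3, 41199451 to 41240448) was at 415, 426 and 430 CPM in the control libraries, 419, 394 and 413 CPM with si025 and 403, 408 and 395 CPM with si033. The si025 libraries overlapped both other groups, and the si033 libraries lay below the control libraries. Its log2 fold change of -0.05 with si025 (SE 0.04, adjusted *p* = 0.256) and of -0.08 with si033 (SE 0.04, adjusted *p* = 0.106) was not called, nor was the difference between the siRNAs (0.02, SE 0.04, adjusted *p* = 0.615).

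*JUP* (γ-catenin, chromosome 17, 41754607 to 41786853, minus strand), which also serves desmosomes, was the catenin called in opposite directions. It was at 123, 127 and 114 CPM in the control libraries, 154, 146 and 141 CPM with si025 and 106, 106 and 100.5 CPM with si033, with no overlap between groups. It rose with si025 by 0.27 (log2, SE 0.05, adjusted *p* = 5.83e-05), and its change with si033 was -0.22 (SE 0.05, adjusted *p* = 0.000959). The siRNAs differed by 0.49 (SE 0.05, adjusted *p* = 1.55e-08). Per kb, *JUP* stood at 27.4% ± 1.77 of the *CTNNB1* level in control cells, 34.3% ± 1.51 with si025 and 24.8% ± 0.479 with si033.

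*CTNNA1* (α-catenin, chromosome 5, 138753386 to 138935034) was at 380, 396 and 384 CPM in the control libraries, 449, 430 and 445 CPM with si025 and 391, 391 and 383 CPM with si033. The si025 libraries lay above all others, and control and si033 overlapped. The rise with si025 was 0.19 (log2, SE 0.04, adjusted *p* = 0.000231), and the change of 0.01 with si033 was not called (SE 0.04, adjusted *p* = 0.923). It also differed between the siRNAs, by 0.18 (SE 0.04, adjusted *p* = 0.000318). Its pattern over the libraries lay nearest to that of *CDH1* among the members. *CTNNA1* and *CDH12* have pseudogenes in the annotation, so their counts are less certain.

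*CTNND1* (p120-catenin, chromosome 11, 57761762 to 57819180), which holds cadherins at the membrane, was the catenin called lower with both siRNAs. It was at 618, 611 and 626 CPM in the control libraries, 581, 548 and 567 CPM with si025 and 544, 538 and 565 CPM with si033. All si025 and si033 libraries lay under the lowest control library, and the si025 and si033 groups overlapped. Relative to control, the values were -0.13 for si025 (log2, SE 0.04, adjusted *p* = 0.00629) and -0.17 for si033 (SE 0.04, adjusted *p* = 0.000778). The difference of 0.04 between the siRNAs was not called (SE 0.04, adjusted *p* = 0.376).

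The other classical cadherins were near the limit of detection. *CDH2* (N-cadherin, chromosome 18, 27932878 to 28177446) had 3, 6 and 8 counts in the control libraries, 5, 6 and 18 with si025 and 0, 2 and 4 with si033. Its level was 0.0966% ± 0.0278 of that of *CDH1* per kb in control cells. Pooled over a group, *CDH2* was at 0.332 CPM in control cells (exact 95% Poisson interval 0.194 to 0.532), 0.521 CPM with si025 (0.349 to 0.749) and 0.111 CPM with si033 (0.0407 to 0.242). The intervals of control and si033 overlapped, and those of si025 and si033 did not. They hold counting error only and not the spread between libraries, and 18 of the 29 si025 counts came from replicate 3. In a fit without the expression filter, *CDH2* was lower with si033 by -1.54 (SE 0.71), which was not called (adjusted *p* = 0.0664), and differed between the siRNAs by 2.16 (SE 0.64, adjusted *p* = 0.00238).

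*CDH12* (chromosome 5, 21750191 to 22853622) had 2, 4 and 14 counts in the control libraries, 7, 9 and 9 with si025 and 11, 7 and 34 with si033. The si033 libraries, at 0.906, 0.542 and 1.17 CPM, lay above the control libraries by the narrowest of margins, as the highest control library was at 0.541 CPM. In the fit without the filter, its log2 fold change with si033 was 1.27 (SE 0.41, adjusted *p* = 0.00653) and with si025 0.23 (SE 0.47, adjusted *p* = 0.732). The same fit gave -1.04 for si025 against si033 (SE 0.39, adjusted *p* = 0.0188), although the libraries of these groups overlapped. Of the 52 counts with si033, 34 came from replicate 3, the deepest library. These values, like those of *CDH2*, rest on at most 34 counts per library.

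Other members of the cadherin superfamily were then examined. Of 23 further cadherins, 11 had no count in any library and 6 passed the filter. Of these 6, 2 were called higher with si025, and 1 higher and 3 lower with si033. Over all tested genes, 61.7% were called with si025 and 54.8% with si033. The mean of *CDH26* was 53.8 CPM for control, 51.0 CPM for si025 and 19.7 CPM for si033 (-1.43 against control, adjusted *p* = 1.48e-14). *CDH10*, at 4.89 CPM in control cells, was higher with si025 (0.57, adjusted *p* = 0.00101) and lower with si033 (-0.63, adjusted *p* = 0.00169). *CDHR1* rose with si033 (0.97, adjusted *p* = 0.00178) from 1.28 CPM in control cells, with 1.35 CPM under si025. Of 11 protocadherins, *PCDH1* and *PCDH19* passed the filter. *PCDH1* rose with si025 (0.46, adjusted *p* = 3.91e-08) and fell with si033 (-1.12, adjusted *p* = 1.49e-13), and *PCDH19* rose with si025 (1.36, adjusted *p* = 1.87e-05). *CDH7* was likewise higher with si025 (0.26, adjusted *p* = 0.000917) and lower with si033 (-0.43, adjusted *p* = 1.14e-05).

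Desmosomes join cells through the desmosomal cadherins DSG and DSC, which bind JUP and plakophilins. Of 11 tested desmosome genes, 4 were called higher and 2 lower with si025 (median log2 fold change 0.12), and 0 higher and 7 lower with si033 (median -0.36), beside medians of 0.02 and 0.00 over all genes, of which 27.8% were called lower with si033. Between the siRNAs, 8 were called and all 8 were higher with si025, against 60.9% of all tested genes called (31.2% higher). *DSG2* (0.49 and -0.63) and *DSC2* (0.35 and -0.36) were, like *JUP*, called higher with si025 and lower with si033, with adjusted *p* values of 5.84e-06 or less. *DSC1* (-1.50, adjusted *p* = 2.37e-06) and the plakophilin gene *PKP1* (-0.95, adjusted *p* = 2.87e-13) fell with si033, and *PPL*, which encodes periplakin, rose with si025 (1.21, adjusted *p* = 1.79e-06).

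Among 6 tested catenin relatives, 2 were called higher and 1 lower with si025, and 3 higher and 2 lower with si033. *CTNND2*, a neural relative of p120-catenin, was called higher with both, at 73.3 CPM in the mean of the control libraries, 146 CPM for si025 (adjusted *p* = 8.71e-14) and 104 CPM for si033 (adjusted *p* = 1.39e-08). *CTNNA3* rose with si033 (1.35, adjusted *p* = 8.51e-05) and *CTNNAL1* fell with si033 (-0.48, adjusted *p* = 2.82e-09). Of 19 adherens junction partners, 8 were called higher and 5 lower with each siRNA. Both lists stand beside 61.7% of all tested genes called with si025 and 54.8% with si033. *NECTIN4* was higher with both (0.59, adjusted *p* = 0.000164, and 0.86, adjusted *p* = 1.79e-06) and *TJP1* was lower with si025 (-1.18, adjusted *p* = 0.00705), both from below 5 CPM in control cells. *KIFC3* was at 0.424, 0.530 and 1.35 CPM in control, si025 and si033 cells and passed the filter through si033 alone, so no test is given, and without it 7 partners were called higher with si033. *ADAM10*, which sheds cadherin ectodomains, was higher with si025 (0.53, adjusted *p* = 1.38e-08) and lower with si033 (-0.23, adjusted *p* = 0.00125).

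Among regulators of *CDH1*, *TCF3*, a repressor, was lower with si025 (-0.50, adjusted *p* = 1.27e-08) and with si033 (-0.16, adjusted *p* = 0.00946). The second change was not called without si033 replicate 3, control replicate 1 or control replicate 2 (adjusted *p* = 0.0614, 0.0703 and 0.0512). Of 9 epithelial regulators tested, 4 were called higher and 2 lower with si025, and 2 higher and 4 lower with si033. The shares of all tested genes called were 61.7% and 54.8%. *ELF3* rose with si025 (0.84, adjusted *p* = 4.88e-13) and fell with si033 (-0.36, adjusted *p* = 2.33e-06). *OVOL2* rose with si025 (0.48, adjusted *p* = 2.22e-05). *GRHL3* was at 0.338, 0.932 and 0.332 CPM in control, si025 and si033 cells and passed the filter through si025 alone, so no test is given, and without it 3 regulators were called higher with si025.

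For β-catenin signaling, 15 genes of the destruction complex and its regulators were tested, of which 4 were called higher and 4 lower with si025, and 3 higher and 1 lower with si033. *GSK3B*, the kinase that marks β-catenin for degradation, rose with both (0.37, adjusted *p* = 1.37e-06, and 0.43, adjusted *p* = 1.72e-07), as did *APC2* (0.73, adjusted *p* = 0.000493, and 1.04, adjusted *p* = 7.72e-06). *AXIN2*, also a β-catenin target, fell with si025 (-0.46, adjusted *p* = 0.00823), a call lost without control replicate 2 (adjusted *p* = 0.0585), and was higher with si033 (0.32, adjusted *p* = 0.0480), a call lost in 8 of 15 alternative analyses. Of 12 β-catenin targets, 4 were called higher and 3 lower with si025, and 4 higher and 2 lower with si033, with medians of -0.01 and -0.02. *CD44* (1.22, adjusted *p* = 3.17e-11, and -0.91, adjusted *p* = 2.48e-07) and *LEF1* (-0.36, adjusted *p* = 5.03e-07, and 0.65, adjusted *p* = 2.49e-11) each moved in opposite directions with si025 and si033. *ASCL2* was at 0.408, 0.443 and 1.72 CPM in control, si025 and si033 cells and passed the filter through si033 alone, so no test is given, and without it 3 targets were called higher with si033. Of 7 genes of the TCF complex, *LEF1* among them, 2 were called higher and 2 lower with each siRNA. *PYGO2* was lower with si025 (-0.49, adjusted *p* = 7.98e-10), and the rise of *TCF7* with si025 (0.59, adjusted *p* = 0.0223) was not called without si025 replicate 3 (0.29, adjusted *p* = 0.307), without control replicate 1 (adjusted *p* = 0.0668), without control replicate 3 (adjusted *p* = 0.113) or with DESeq2 (adjusted *p* = 0.104).

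Of 13 tested Wnt receptors, 7 were called higher and 0 lower with si025 (median 0.31), and 2 higher and 6 lower with si033 (median -0.12). The shares over all tested genes were 32.9% higher and 28.8% lower with si025, and 26.9% and 27.8% with si033, so the number of receptors called in either direction was near the 61.7% and 54.8% of all genes. *FZD4* fell with si033 from 176 to 41.5 CPM (-2.08, adjusted *p* = 2.11e-18), with 171 CPM under si025. *FZD7* rose with si033 from 1.35 to 8.99 CPM (2.65, adjusted *p* = 1.59e-11), with 1.97 CPM under si025. *FZD10* was at 0.348, 1.07 and 0.183 CPM in control, si025 and si033 cells and passed the filter through si025 alone, so no test is given, and without it 6 of 12 receptors were called higher with si025 (median 0.27).

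**Figure D3:**
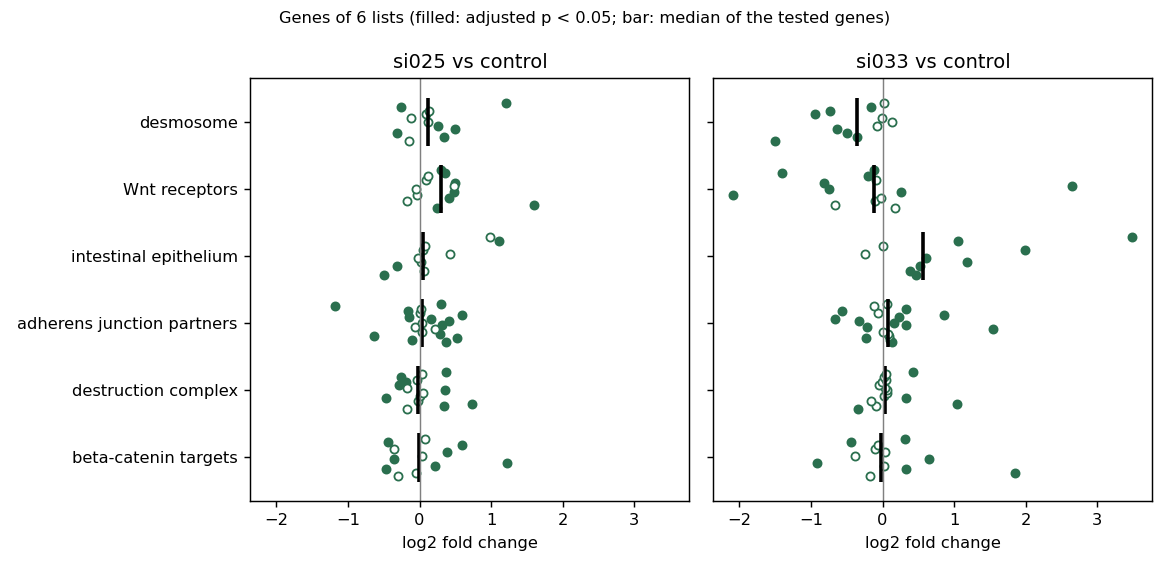
Log2 fold change against control (horizontal axes) of each tested gene of 6 lists, for si025 (left) and si033 (right), with filled points for called genes and a bar at the median of the list. *VIL1*, *KIFC3* and *ASCL2* (filled with si033) and *FZD10* (filled with si025) passed the filter through 1 group alone. Their fill is therefore not to be read as a test. These genes also enter the bars, and without *VIL1* the intestinal median with si033 is 0.53. Desmosome genes lie mostly below 0 with si033 (median -0.36), and intestinal genes mostly above 0 (median 0.57).

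Since *CDH17* is best known as an intestinal cadherin, 23 genes of intestinal epithelium were compared. Of these, 6 had no count in any library and 10 passed the filter. With si033, 8 of the 10 were called higher and 0 lower (median 0.57), whereas with si025 1 was called higher and 2 lower (median 0.05). Over all tested genes, 26.9% were called higher and 27.8% lower with si033, and 32.9% and 28.8% with si025. Between the siRNAs, 8 were called, 7 of them lower with si025, against 60.9% of all tested genes called (29.7% lower). *VIL1*, which encodes villin of microvilli, had 4 counts over the control libraries, 9 with si025 and 51 with si033, and is given without a test because it passed the filter through the si033 libraries alone. Without *VIL1*, a choice made after the values were seen, 7 of 9 were called higher with si033 (median 0.53). Between the siRNAs, 7 of these 9 were called, 6 of them lower with si025. *MUC13*, a membrane mucin, rose with si033 from 2.25 to 9.27 CPM (1.99, adjusted *p* = 9.90e-10), with 2.45 CPM under si025. The transcription factor gene *HNF4G* rose from 22.0 to 50.3 CPM (1.18, adjusted *p* = 1.06e-12), with 22.3 CPM under si025.

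*CDX2*, which encodes a transcription factor known to activate *CDH17* in the intestine, moved in opposite directions. Control libraries held 9.13 ± 0.655 CPM, those with si025 6.39 ± 0.225 CPM (-0.49, adjusted *p* = 0.000667) and those with si033 12.7 ± 1.22 CPM (0.47, adjusted *p* = 0.000657). *CDH17* was higher than control with si025 while *CDX2* was lower, and both were higher with si033. Any part of *CDX2* in the level of *CDH17* was not tested. *TFF3*, a secreted trefoil peptide gene, was the gene of the list called higher with both siRNAs (1.11, adjusted *p* = 1.57e-05, and 1.05, adjusted *p* = 4.85e-05). *CDX2* and *TFF3* were named after their values had been seen. The most abundant gene of the list was *SI*, which encodes the brush border enzyme sucrase-isomaltase, whose means were 155, 164 and 156 CPM for the control, si025 and si033 libraries, and it was not called with either siRNA (adjusted *p* = 0.24 and 0.918). The 6 genes without a count in any library included *CDX1*, *MUC2*, *KRT20* and *FABP1*.

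**Figure D4:**
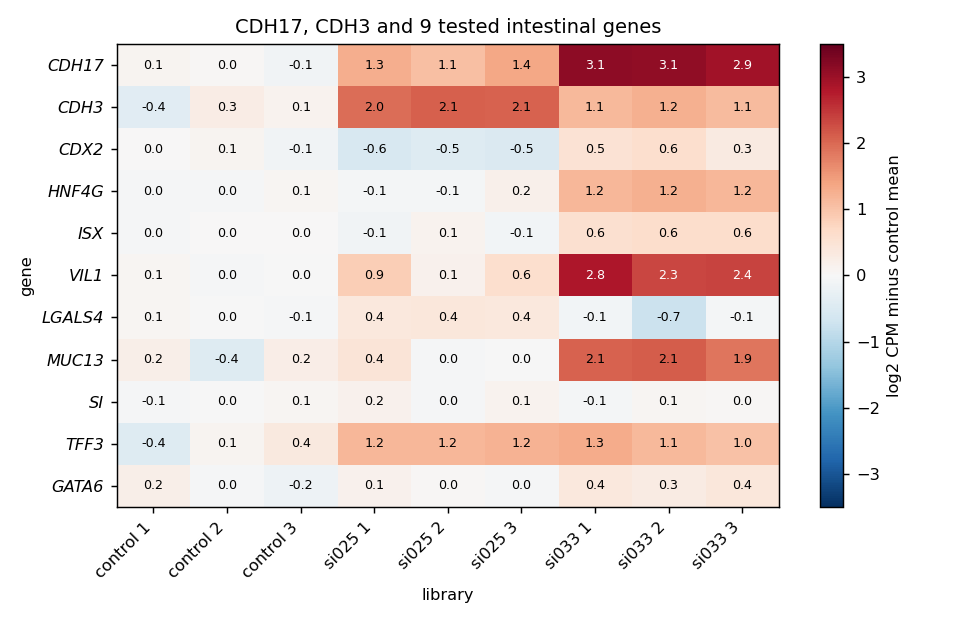
Log2 CPM minus the mean of the control libraries (colour and printed value) for *CDH17*, *CDH3* and 9 of the 10 tested intestinal genes (rows) in each of the 9 libraries (columns). *CDH17*, *MUC13*, *VIL1* and *HNF4G* are highest in the 3 si033 libraries, and *CDH3* in the 3 si025 libraries.

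Over all tested genes, the 5 whose log2 CPM lay nearest to *CDH17* across the 9 libraries, after subtraction of each gene's control mean, were *NPNT*, *IGFBP5*, *GRM8*, *IGFBP3* and *MAF*. Their Euclidean distances ran from 0.96 to 1.48. *NPNT*, an integrin ligand of the extracellular matrix, had log2 fold changes of 0.86 with si025 and 2.82 with si033. *IGFBP3*, a binding protein for insulin-like growth factors, was at 52.6 CPM in control cells and had values of 1.39 and 2.27. The distance that chose these genes fixes the likeness of their order to that of *CDH17*, so it is no separate result.

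Markers of other cell types moved with the siRNAs as well. The summed level of 8 mesenchymal markers was between 19.4 and 21.6 CPM in the control libraries, 42.1 and 48.3 CPM with si025, and 12.5 and 14.4 CPM with si033, mostly from *LUM*. With si033, *LUM* was called lower (-0.88, adjusted *p* = 9.66e-08), but *FN1* was called higher (0.57, adjusted *p* = 0.00817). *COL1A1* was not called there (-0.20, adjusted *p* = 0.503). The call of *FN1* was lost without si033 replicate 3 (adjusted *p* = 0.0564). The 10 luminal markers summed to between 8477 and 8719 CPM in the control libraries, 10416 and 10727 CPM with si025, and 7563 and 7848 CPM with si033. The luminal genes with the largest changes included *KLK3* (1.51 with si025, adjusted *p* = 2.1e-13) and *KLK2* (0.85 with si025, adjusted *p* = 8.42e-14). The 4 basal markers stayed between 1.57 and 5.06 CPM in all libraries, and *KRT14*, the 1 that passed the filter, was lower with si033 (-1.30, adjusted *p* = 2.81e-05). Their part in the values of *CDH3* and the other members was not tested.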

How the data were processed

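RNA-seq counts of 9 VCaP libraries, 3 per group by their titles, were used. According to the labels and methods of the study, the authors aligned paired-end reads of stranded total RNA libraries (1.3 µg of RNA) to hg38 with HISAT2 2.1.0. Per the file headers, the authors made the deposited raw counts of read pairs with featureCounts 1.5.2 over RefSeq exons on the sense strand, and the gene length in bases (an other column of these files) was used for levels per kb. The recorded command did not ask for multi-mapped pairs, which its defaults leave out. The study's methods name GENCODE and a Qiagen kit where the headers and labels give RefSeq and a Promega kit.

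Counts were analysed in R 4.3.3 with edgeR 4.0.16, using TMM normalisation, the default expression filter, 1 quasi-likelihood fit of 3 group means without covariates and Benjamini-Hochberg adjustment. SEs were derived from the fold change and F statistic. Distances used log2 CPM with a prior count of 2. The fit was tested on simulated data. Genes whose libraries over the CPM cutoff of the filter (0.709) all belonged to 1 group are given without a test. Alternatives were other scalings, no filter, DESeq2 1.42.0, 2 groups only, a replicate block and leaving out each library.

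The members and the gene lists were chosen with earlier results of these data known. Besides the members, the text names up to 3 called genes per list with the largest change against control and the 5 genes nearest to *CDH17*. *CDH7*, *DSG2*, *DSC2* and *ADAM10* were added after their values had been seen. A few genes of the lists count in the totals but are not reported here by name.

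The remaining lists gave few values. Of 4 endothelial and 5 immune markers, 1 each was tested, and 1 endothelial marker (*VWF*) was called, with si025, a call lost in 3 alternatives. Of 5 neuroendocrine markers 3 were tested and 1 (*NCAM1*) was called higher with si025, beside 61.7% of all tested genes called there.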

Additional observations from a re-analysis of the deposited data

Results flagged for a closer look

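The direct comparison of si025 with si033 in edgeR separated the siRNAs in 4 of the 6 tested members. *CDH3* (0.90), *JUP* (0.49), *CDH1* (0.31) and *CTNNA1* (0.18, all log2) were higher with si025 than with si033, in all 3 libraries against all 3. The share of all tested genes called in this comparison was 60.9%, and the share whose si025 and si033 libraries did not overlap was 62.6%.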

How the results depend on the processing

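The counts of called members (5, 3 and 4 of 6) were the same in all 15 alternatives, and *CDH17* stayed between 3.05 and 3.20 on the log2 scale under si033. With the replicate block, 5 members were called with si025, and the block changed no call of a member. The largest correlation between libraries with the same number was 0.0729, so the numbers were not treated as pairs. The uncalled change of *CTNNA1* with si033 was -0.0015 with DESeq2, and the cause was not tested. Without the length correction, the *JUP* to *CTNNB1* ratio was 35.9% with si025 and 25.9% with si033, by the construction of the ratio. Ranking by Pearson correlation instead of distance gave 0 of the 5 genes nearest to *CDH17*, so that list depends on the measure. Leaving out 1 library, called genes of the gene lists numbered 69 to 74 with si025 and 67 to 81 with si033. Depth limits *CDH2* and *CDH12*, which had at most 34 counts in a library.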
